A study of Mus musculus with 244 samples.

Results

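The genes of 9 C-type lectin receptors of myeloid cells that serve in pattern recognition, Clec4d, Clec4e, Clec4n, Clec7a, Clec5a, Clec4a1, Clec4a2, Clec4a3 and Clec12a, were followed through single macrophages of mouse atherosclerotic plaque. They were taken by symbol from a table of 24475 genes, and 9 of 9 symbols had a row. The set was chosen by name with the RPKM differences and shares between regression and baseline cells known, so the values given here for that contrast describe the receptors and test nothing.

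Regression cells came from atherosclerotic aortic arches of Apoe-/- donors kept on a high-fat diet over 16 weeks. These arches were grafted into wild-type (WT) hosts on chow and collected 3 days after grafting. Baseline cells came from arches of Apoe-/- donors after the same 16 weeks of that diet, with no graft. Both groups were sorted as CD45+CD11b+F4/80+ cells, and each library is 1 cell, with 113 regression and 125 baseline cells kept. No animal is named in the labels, so each group counts as 1 sample, and the host's Apoe genotype, the change of diet and the surgery cannot be told apart. Cells of the host can also enter a graft. Apoe itself, absent by genotype from the donors, was listed in 112 of 113 regression cells (99.1%) and in 9 of 125 baseline cells (7.20%). Its mean log2(RPKM + 1) was 11.86 in regression and 0.30 in baseline. Whether single regression cells came from the donor or the host was not tested.

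C-type lectin receptors bind sugars, glycolipids or material from damaged cells through a C-type lectin-like domain outside the cell. Clec4d (MCL), Clec4e (Mincle) and Clec4n (Dectin-2) have short tails and signal through the adaptor Fcer1g, Clec5a (MDL-1) pairs with the adaptor Tyrobp (DAP12), and Clec7a (Dectin-1) carries its own tyrosine motif. These routes meet at the kinase Syk and the Card9, Bcl10 and Malt1 complex, which drives inflammatory genes. Clec4a2 (Dcir1) and Clec12a (MICL) instead carry an inhibitory motif that recruits phosphatases such as Ptpn6, while Clec4a1 (Dcir4) and Clec4a3 (Dcir3) are Dcir relatives without that motif.

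The 9 genes lie on mouse chromosome 6 (GRCm38.p6, the mm10 build). Clec4a1 (chr6:122921848-122934619), Clec4a3 (chr6:122952515-122969878), Clec4a2 (chr6:123122690-123143999), Clec4n (chr6:123229843-123247024) and Clec4d (chr6:123262107-123275268), all on the plus strand, are followed by Clec4e on the minus strand (chr6:123281789-123289871). This cluster spans 368.02 kb. Clec4d and Clec4e point at each other, with 6520 bases between their ends. Clec12a (plus strand, chr6:129349783-129365303) and Clec7a (minus strand, chr6:129461591-129472785) lie within 123.0 kb of each other, and Clec5a stands apart (minus strand, chr6:40574898-40585805). RefSeq promoter windows, 250 bases before to 50 after the start site, were matched for 8 of the 9 genes and not for Clec4n. The windows of the 3 genes whose levels differed most between the groups are shown, with matches to 5 motifs of myeloid or stress-responsive factors in capitals. Searched on both strands, the motifs were TTGCNNAA for C/EBP, GAGGAA for PU.1, GGG, any 5 bases and CC for NF-kB, TGANTCA for AP-1 and ACGTG for the hypoxia response element.
Clec4d promoter, chr6:123261857-123262156, plus strand, 5′ to 3′: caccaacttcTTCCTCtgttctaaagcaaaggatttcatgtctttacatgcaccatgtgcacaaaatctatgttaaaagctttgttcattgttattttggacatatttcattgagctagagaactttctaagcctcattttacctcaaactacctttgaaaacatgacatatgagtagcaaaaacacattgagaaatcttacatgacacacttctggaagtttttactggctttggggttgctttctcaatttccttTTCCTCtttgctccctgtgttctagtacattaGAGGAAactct
Clec4e promoter, chr6:123289822-123290121, minus strand, 5′ to 3′: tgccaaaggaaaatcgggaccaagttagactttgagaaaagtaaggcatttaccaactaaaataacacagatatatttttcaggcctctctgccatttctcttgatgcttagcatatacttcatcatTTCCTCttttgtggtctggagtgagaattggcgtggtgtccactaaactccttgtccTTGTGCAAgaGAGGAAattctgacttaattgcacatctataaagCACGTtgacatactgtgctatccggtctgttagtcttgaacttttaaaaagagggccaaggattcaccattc
Clec12a promoter, chr6:129349994-129350293, plus strand, 5′ to 3′: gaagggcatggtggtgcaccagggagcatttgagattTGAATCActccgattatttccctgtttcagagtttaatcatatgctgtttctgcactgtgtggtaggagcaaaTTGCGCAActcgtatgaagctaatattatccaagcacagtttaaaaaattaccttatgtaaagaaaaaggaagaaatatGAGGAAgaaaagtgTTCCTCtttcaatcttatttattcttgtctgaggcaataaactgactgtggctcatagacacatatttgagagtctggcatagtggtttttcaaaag
The Clec4d window held only PU.1 letters, at positions -240, 8 and 40 counted from the start site. The Clec4e window held the C/EBP letters at -66, PU.1 letters at -123 and -56 and the hypoxia response element at -22. The Clec12a window held C/EBP letters at -140, PU.1 letters at -61 and -47 and AP-1 letters at -213. This window lies wholly within the span of Clec12a given above, so its start site is inside the gene. The bases before that span were not searched. Of 32544 RefSeq mouse promoter windows of this length, 10.8% held the C/EBP letters, 28.1% the PU.1 letters, 51.0% the NF-kB letters, 7.79% the AP-1 letters and 19.7% the hypoxia response element. Such matches are letters in a window and no record of binding, and the motifs were picked with the levels known.

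The deposited values are RPKM, which corrects reads for transcript length and library size, and a gene is called listed in a cell at an RPKM of 1 or more. Levels are means of log2(RPKM + 1) over cells with the SD between cells, and a difference is the regression mean minus the baseline mean on that scale, which understates differences of low genes. Regression cells listed 1142 to 4119 genes with a median of 2360, and baseline cells 1095 to 4378 with a median of 2491. Read depth, which could be recovered for 62 of 116 regression and 85 of 128 baseline libraries, had a median of 0.855 M reads in regression and 1.11 M reads in baseline, and at that depth 1 read of Clec4d is worth 0.884 RPKM in regression and 0.683 RPKM in baseline. Each of the 113 regression and 125 baseline cells listed at least 3 of 10 macrophage markers. Ptprc, Itgam and Adgre1, the genes of the antigens used for sorting, are among the 10. The count is therefore no independent check of the labelled cell type. Shares of cells listing a marker ran from 21.2% (Mertk) to 100.0% (Lyz2) in regression and from 25.6% (Mertk) to 97.6% (Csf1r) in baseline. Fcgr1 was listed in 56.6% of regression and 47.2% of baseline cells. Library numbers fall into 5 unbroken stretches, each of 1 group, and the labels do not say whether a stretch is a capture run. Regression holds 1-20 (20 cells), 93-111 (18 cells) and 168-244 (75 cells), and baseline holds 21-92 (69 cells) and 112-167 (56 cells). Values are therefore also given by stretch, with the difference in each of the 6 pairings of a regression with a baseline stretch.

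Of the 9 receptors, 6 had the higher mean in regression cells and 3 the lower mean, with a median difference of 0.82. Among all 9299 genes that 5% or more of either group's cells listed, 47.2% had the higher and 52.8% the lower mean, with a median difference of -0.02. The mean of 4 receptors was higher by 1 or more on the log2 scale in regression (Clec4d, Clec4e, Clec4a2 and Clec4n), against 2.43% of the 9299 genes, and that of 1 receptor (Clec12a) was lower by 1 or more, against 3.17%. Because the receptors were chosen with these differences known, nothing is read from these counts. Under other pseudocounts, rescaling of each cell, a ratio of mean RPKM and other cell filters, the sign of Clec4d, Clec4e, Clec4n, Clec7a, Clec4a1, Clec4a2, Clec4a3 and Clec12a stayed as given, whereas Clec5a turned to 0.03 with a pseudocount of 10, to 0.01 as a log2 ratio of mean RPKM, to 0.18 in cells with at least 2000 genes, to 0.20 without cells listing at least 3 classical monocyte markers and to 0.36 without those listing at least 2 neutrophil markers.

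**Figure D1:**
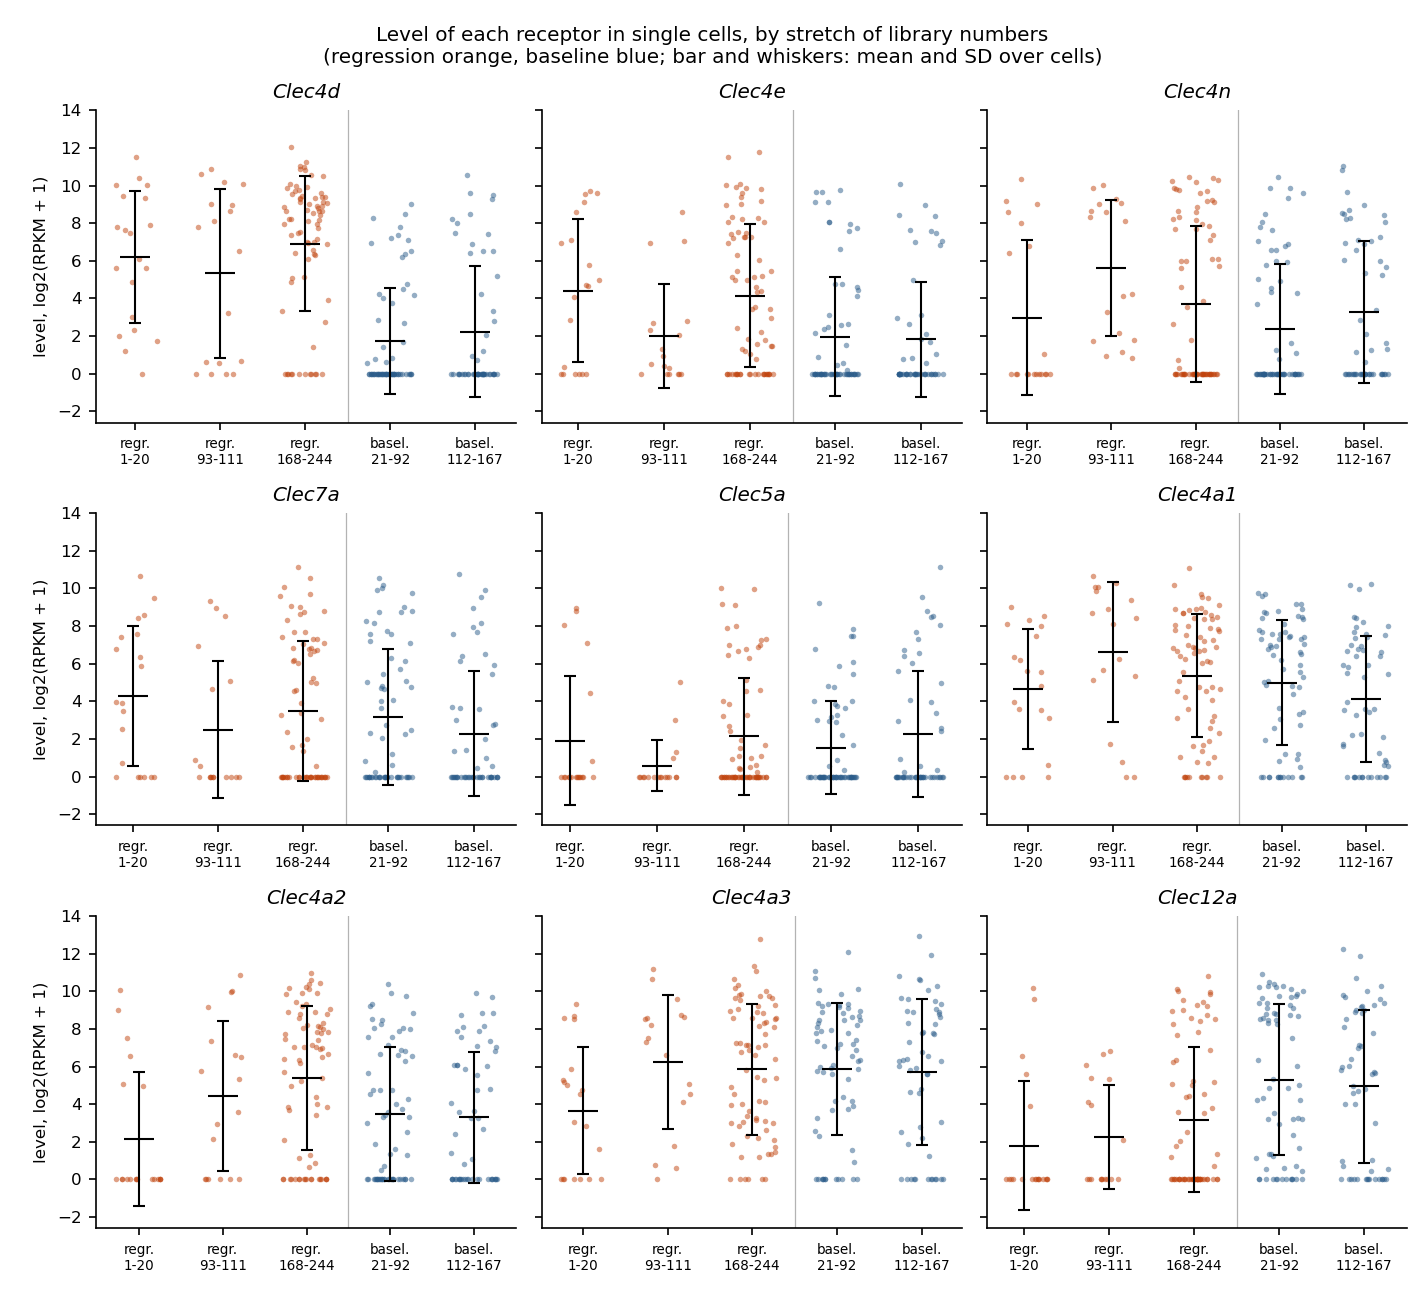
Level of each receptor, as log2(RPKM + 1), in the 3 regression stretches (left, orange) and the 2 baseline stretches (right, blue) of library numbers; dots are single cells, and bars and whiskers give the mean and SD over cells. Clec4d sits at 5.33 to 6.91 in the regression stretches and at 1.71 and 2.24 in the baseline stretches, Clec12a at 1.79 to 3.18 in the regression stretches and at 5.31 and 4.96 in the baseline stretches, while single cells of both groups overlap for every receptor.

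Clec4d, which forms a pair with Clec4e on the cell surface and binds mycobacterial glycolipid, was the receptor with the most different level. In regression cells Clec4d ran from 0 to 4231 RPKM with a median of 238.8, against 0 to 1514 RPKM with a median of 0 in baseline cells. The 2 groups overlapped, because 17 regression cells had no Clec4d and 18 baseline cells had at least 100 RPKM. It was listed in 93 of 113 regression cells (82.3%, exact 95% binomial interval 74.0 to 88.8%) and in 40 of 125 baseline cells (32.0%, 23.9 to 40.9%). These intervals, and all others here, cover counting error only. At 100 RPKM or more it stood in 70 regression cells (62.0%) and 18 baseline cells (14.4%). The mean level was 6.53 ± 3.75 in regression and 1.95 ± 3.12 in baseline (SD over 113 and 125 cells), a difference of 4.59, the 6th highest of the 9299 genes. The split into groups took up 31.0% of the variance of Clec4d between cells. Its level was 6.20, 5.33 and 6.91 in regression stretches 1-20, 93-111 and 168-244 and 1.71 and 2.24 in baseline stretches 21-92 and 112-167, so that the 6 pairings differed by 3.09 to 5.20. The stretch of 18 cells that listed the fewest genes, 93-111, had the lowest share of Clec4d cells in regression, 61.1%, against 95.0% in stretch 1-20 and 84.0% in stretch 168-244.

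Clec4e, the receptor for mycobacterial cord factor and for a nuclear protein let out by dying cells, showed a smaller difference with the same sign. Regression cells ran from 0 to 3561 RPKM with a median of 6.22, and baseline cells from 0 to 1078 RPKM with a median of 0. Cells listing it numbered 72 of 113 in regression (63.7%, 54.1 to 72.6%) and 41 of 125 in baseline (32.8%, 24.7 to 41.8%). High values occurred in both groups, with 35 regression cells and 20 baseline cells at 100 RPKM or more. The mean level was 3.85 ± 3.71 in regression and 1.90 ± 3.12 in baseline, a difference of 1.95. Regression stretch 93-111, at 2.00, lay next to the baseline stretches at 1.96 and 1.82, while stretches 1-20 and 168-244 lay at 4.40 and 4.15. The difference was positive in 6 of 6 pairings but ran from 0.04 to 2.58.

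Clec4n, which recognises fungal mannans, varied more between the stretches of 1 group than between the groups. Its RPKM ran from 0 to 1386 with a median of 2.48 in regression cells and from 0 to 2103 with a median of 0 in baseline cells. It was listed in 60 regression cells (53.1%) and 55 baseline cells (44.0%), shares whose intervals, 43.5 to 62.5% in regression and 35.1 to 53.2% in baseline, overlap. The difference of these shares, 9.10 percentage points, was 0.305 points in cells with at least 2000 genes, 2.32 points without regression stretch 93-111 and 19.2 points without regression stretch 168-244. The mean level was 3.88 ± 4.12 in regression and 2.78 ± 3.62 in baseline, a difference of 1.09. Regression stretch 93-111 stood apart, with Clec4n listed in 88.9% of its cells and a level of 5.62, against 40.0% and 2.97 in stretch 1-20 and 48.0% and 3.70 in stretch 168-244. Baseline stretches 21-92 and 112-167 had levels of 2.38 and 3.28, and without stretch 93-111 the difference was 0.76. Stretch 93-111 was thus the highest of the 3 regression stretches for Clec4n and the lowest for both Clec4d and Clec4e.

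Clec7a, the beta-glucan receptor, was listed in 60 regression cells (53.1%, 43.5 to 62.5%) and 58 baseline cells (46.4%, 37.4 to 55.5%). Its RPKM ran from 0 to 2274 with a median of 3.06 in regression and from 0 to 1768 with a median of 0.18 in baseline, and the ranges overlapped almost wholly. The level was 3.47 ± 3.71 in regression and 2.77 ± 3.51 in baseline, a difference of 0.71. Stretch means of 4.29, 2.49 and 3.49 in regression and 3.17 and 2.27 in baseline interleaved, and 5 of 6 pairings were positive. Leaving out cells that list at least 2 neutrophil markers took the difference to 0.17.

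Clec5a, a receptor that pairs with Tyrobp and is known for dengue virus binding, was the receptor with the lowest level in both groups. It ran from 0 to 1045 RPKM in regression cells and from 0 to 2280 RPKM in baseline cells, with a median of 0 in each. The gene was listed in 37 regression cells (32.7%) and 42 baseline cells (33.6%). Its levels of 1.85 ± 3.00 in regression and 1.87 ± 2.91 in baseline differed by -0.01, with no set sign across the pairings, of which 2 of 6 were positive. The intervals of the shares, 24.2 to 42.2% in regression and 25.4 to 42.6% in baseline, overlap almost wholly.

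**Figure D2:**
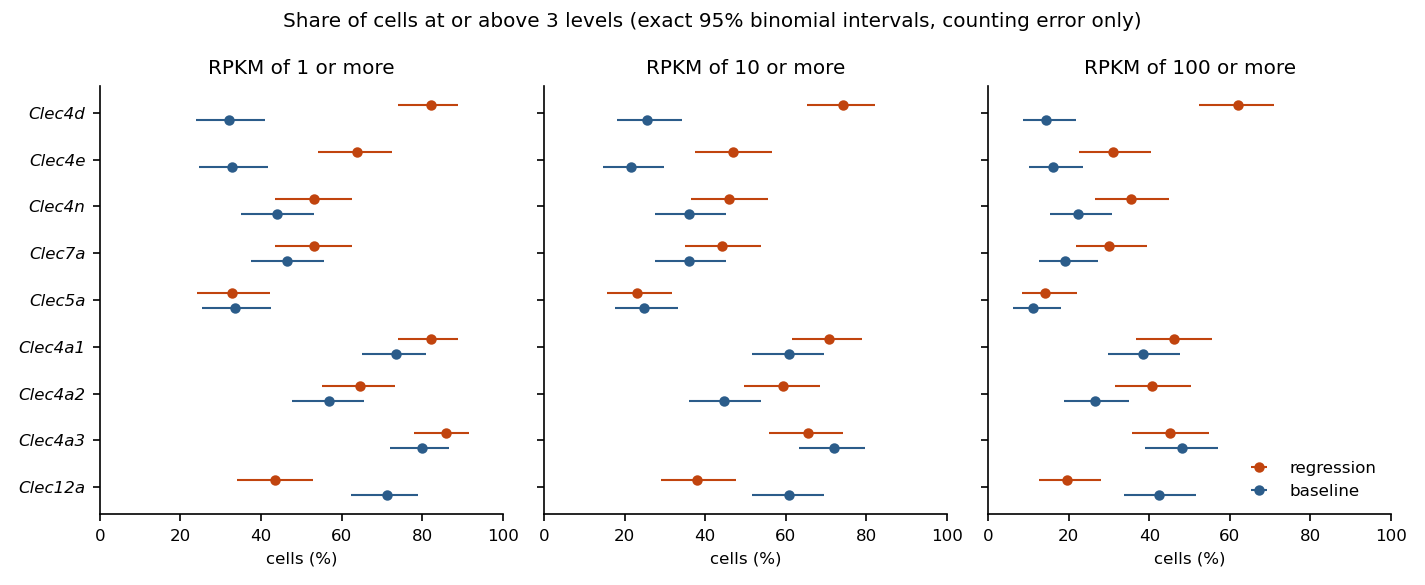
Percent of cells in which each receptor reached an RPKM of 1, 10 or 100 (the 3 panels), in regression (orange, upper point of each pair, 113 cells) and baseline (blue, lower point, 125 cells); lines are exact 95% binomial intervals for counting error only. At an RPKM of 1 the intervals are apart for Clec4d (82.3% against 32.0%), Clec4e (63.7% against 32.8%) and Clec12a (43.4% against 71.2%), and overlap for the other 6 receptors.

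The Dcir family genes were among the receptors listed in the most cells. Clec4a1 ran from 0 to 2161 RPKM with a median of 74.5 in regression and from 0 to 1216 RPKM with a median of 42.1 in baseline. It was listed in 93 regression cells (82.3%) and 92 baseline cells (73.6%), and its levels of 5.44 ± 3.36 in regression and 4.61 ± 3.35 in baseline differed by 0.82. As for Clec4n, stretch 93-111 had the highest level, 6.62, against 4.64 and 5.36 in regression stretches 1-20 and 168-244, and 4.99 and 4.14 in baseline stretches 21-92 and 112-167.

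Clec4a2, the Dcir gene with the inhibitory motif, ran from 0 to 1978 RPKM with a median of 39.1 in regression and from 0 to 1363 RPKM with a median of 5.51 in baseline. Its level was 4.66 ± 3.96 in regression and 3.40 ± 3.51 in baseline, a difference of 1.26, and it was listed in 73 regression cells (64.6%) and 71 baseline cells (56.8%). The sign of this difference varied with the stretch, and 4 of 6 pairings were positive. The level was 5.38 in regression stretch 168-244, with 73.3% of cells listing it, but 2.16 in stretch 1-20, with 30.0%, and 4.45 in stretch 93-111. Baseline stretches lay between at 3.48 and 3.31, and without stretch 168-244 the difference was -0.16. Clec4a2 is also the receptor with the most shared sequence: 6.69% of its 50-base transcript stretches occur in other genes' transcripts, including 3.85% in its neighbour Clec4a4, so part of its reads may be split between genes.

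Clec4a3 was the highest of the 9 receptors in baseline. It ran from 0 to 6979 RPKM with a median of 41.9 in regression and from 0 to 8012 RPKM with a median of 85.0 in baseline, the highest single values of any of the 9 receptors. It was listed in 97 regression cells (85.8%) and 100 baseline cells (80.0%) at an RPKM of 1 or more, but at 10 RPKM or more in 65.5% of regression and 72.0% of baseline cells. The levels of 5.53 ± 3.55 in regression and 5.79 ± 3.67 in baseline differed by -0.26, and the difference was 0.14 without regression stretch 1-20, whose level was 3.66 against 6.25 and 5.85 in stretches 93-111 and 168-244.

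Clec12a, an inhibitory receptor for uric acid crystals and dead cells, was the receptor with the largest negative difference of the 9. It ran from 0 to 1775 RPKM with a median of 0 in regression and from 0 to 4902 RPKM with a median of 40.1 in baseline. Clec12a was listed in 49 regression cells (43.4%, 34.1 to 53.0%) and 89 baseline cells (71.2%, 62.4 to 79.0%). At 100 RPKM or more it stood in 22 regression cells (19.5%) and 53 baseline cells (42.4%), and 28 baseline cells had none. The level was 2.78 ± 3.65 in regression and 5.15 ± 4.03 in baseline, a difference of -2.37. The groups took up 8.67% of its variance between cells. Levels were 1.79, 2.25 and 3.18 in regression stretches 1-20, 93-111 and 168-244 and 5.31 and 4.96 in baseline stretches 21-92 and 112-167, and the 6 pairings ran from -3.51 to -1.79.

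RPKM is scaled by transcript length, so the order of the receptors' levels can be read within a group. In regression the order from the highest level was Clec4d, Clec4a3, Clec4a1, Clec4a2, Clec4n, Clec4e, Clec7a, Clec12a and Clec5a. In baseline it was Clec4a3, Clec12a, Clec4a1, Clec4a2, Clec4n, Clec7a, Clec4d, Clec4e and Clec5a. Every pair of neighbours in either order lay closer together than the SD between cells, which was 3.00 or more in regression and 2.91 or more in baseline. Clec4d held rank 1 in regression and rank 7 in baseline, and Clec12a rank 8 in regression and rank 2 in baseline, while Clec4a1, Clec4a2 and Clec4n held ranks 3, 4 and 5 in both groups.

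The receptor with the highest RPKM in each cell was counted from the same values. Within a group, the levels of Clec4d and Clec12a were hardly tied, with a Spearman's rho of -0.04 in regression and 0.01 in baseline. Over the regression stretches that rho ran from -0.25 in 1-20 to 0.36 in 93-111. Clec4d was the highest of the 9 receptors in 28 of 113 regression cells (24.8%) and 8 of 125 baseline cells (6.40%). Clec12a was the highest in 8 regression cells (7.08%) and 40 baseline cells (32.0%), Clec4a3 in 17 regression cells (15.0%) and 34 baseline cells (27.2%), and Clec4a2 in 16 regression cells (14.2%) and 6 baseline cells (4.80%). Pooled over cells, Clec4d made up 23.7% of the 9 receptors' RPKM in regression and 4.31% in baseline, and Clec12a 6.36% in regression and 25.4% in baseline. The summed RPKM of the 9 receptors per cell was 11.9 at its lowest, 1810 at its median and 11391 at its highest in regression, against 0.861, 1011 and 8012 in baseline. The 5 activating receptors (Clec4d, Clec4e, Clec4n, Clec7a and Clec5a) made up a median of 56.0% of that sum in regression cells (quartiles 28.2 and 80.6%) and 23.5% in baseline cells (quartiles 2.28 and 51.7%). They made up more than 50% of it in 65 regression cells (57.5%) and 33 baseline cells (26.4%). The pooled shares of the 5 did not all differ in the same direction. Besides Clec4d, the pooled share was larger in regression for Clec4e (9.49% against 4.62% in baseline) and Clec4n (10.5% against 8.49%). It was smaller in regression for Clec7a (7.18% against 8.12%) and Clec5a (2.70% against 3.86%). These are parts of a summed RPKM whose median was larger in regression, so a smaller share is not a lower level. The mean RPKM of Clec7a was 148.1 in regression and 116.4 in baseline. That of Clec5a was 55.6 in regression and 55.4 in baseline. The median share of the 5 per cell was 86.7, 48.3 and 55.7% in regression stretches 1-20, 93-111 and 168-244 and 18.7 and 28.9% in baseline stretches 21-92 and 112-167.

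Regression cells listed a median of 6 of the 9 receptors (mean 5.61 ± 1.69, range 1 to 9), against a median of 5 in baseline cells (mean 4.70 ± 1.93, range 0 to 9). At least 7 receptors were listed in 37 regression cells (32.7%) and 18 baseline cells (14.4%), and all 9 in 3 cells of each group. The share with at least 7 was 20.0, 16.7 and 40.0% in regression stretches 1-20, 93-111 and 168-244. It was 13.0 and 16.1% in baseline stretches 21-92 and 112-167. The median was 6 in stretch 168-244 and 5 in each other stretch of either group. Cells that listed more genes listed more receptors, with Spearman's rho of 0.45 over 113 regression cells and 0.43 over 125 baseline cells. By stretch that rho was 0.10, 0.31 and 0.56 in regression stretches 1-20, 93-111 and 168-244 and 0.26 and 0.56 in baseline stretches 21-92 and 112-167. Both counts come from the same library, and how they move with its read depth was not measured. The part of depth in the difference between the groups was not tested.

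**Figure D3:**
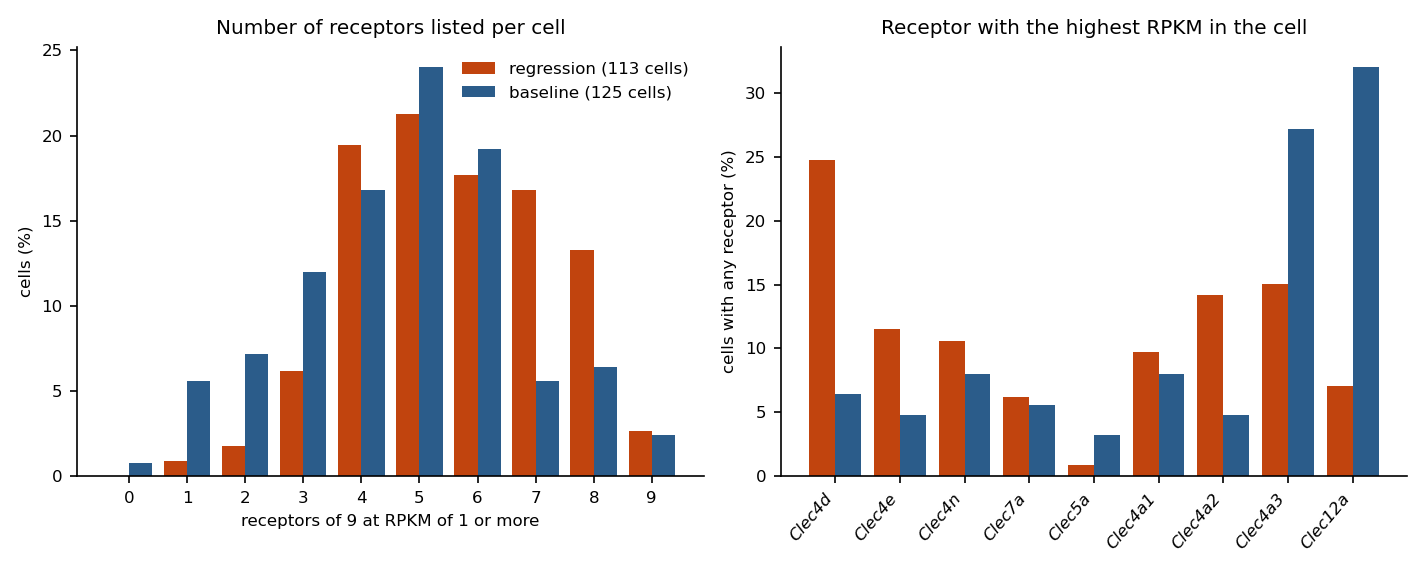
Percent of regression cells (orange, left bars, 113 cells) and baseline cells (blue, right bars, 125 cells) by the number of receptors listed (left panel) and by the receptor with the highest RPKM in the cell (right panel). The regression bars are higher at 7 and 8 receptors and the baseline bars at 1 to 3, and Clec4d leads in 24.8% of regression cells and 6.40% of baseline cells, Clec12a in 7.08% of regression cells and 32.0% of baseline cells.

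Receptors were only weakly tied to one another from cell to cell. Over the 36 pairs the median Spearman's rho of log2(RPKM + 1) was 0.08 over 113 regression cells and 0.12 over 125 baseline cells, with 26 pairs above 0 in regression and 29 in baseline. Points of such a correlation are cells that share a library's depth and dropout for both genes, and the values are a description. The 6 pairs among Clec4a1, Clec4a2, Clec4a3 and Clec12a had a median rho of 0.23 in regression (0.18 to 0.37) and 0.27 in baseline (0.09 to 0.36). The 10 pairs among the activating receptors had a median of 0.03 in regression and 0.14 in baseline, and the 20 pairs between the 2 sets 0.05 in regression and 0.06 in baseline.

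Clec4d and Clec4e, whose proteins pair, were listed together in 63 of 113 regression cells, with 30 listing Clec4d alone, 9 Clec4e alone and 11 neither. In baseline, 19 of 125 cells listed both, 21 Clec4d alone, 22 Clec4e alone and 63 neither. Of the Clec4e cells, 87.5% also listed Clec4d in regression and 46.3% in baseline, beside 82.3% of all regression cells and 32.0% of all baseline cells. The Spearman correlation of the pair was 0.18 in regression and 0.21 in baseline, and by stretch -0.21, 0.30 and 0.27 in regression and 0.33 and 0.07 in baseline.

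Clec4e and Clec4n, both partners of Fcer1g, had the lowest rho of all 36 pairs in regression, -0.27, against 0.05 in baseline. It was -0.45, -0.52 and -0.16 in regression stretches 1-20, 93-111 and 168-244 and 0.08 and 0.03 in baseline stretches 21-92 and 112-167. With the number of genes listed held constant, rho was -0.33 in regression and 0.04 in baseline. In regression 35 cells listed both genes, 37 Clec4e alone, 25 Clec4n alone and 16 neither. Clec4n and Clec5a had a rho of 0.32 in regression and 0.18 in baseline. The highest rho in regression, 0.37, was between Clec4a3 and Clec12a, against 0.09 in baseline. These pairs were picked as the extremes of the 36, and the differences between the groups were not tested.

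**Figure D4:**
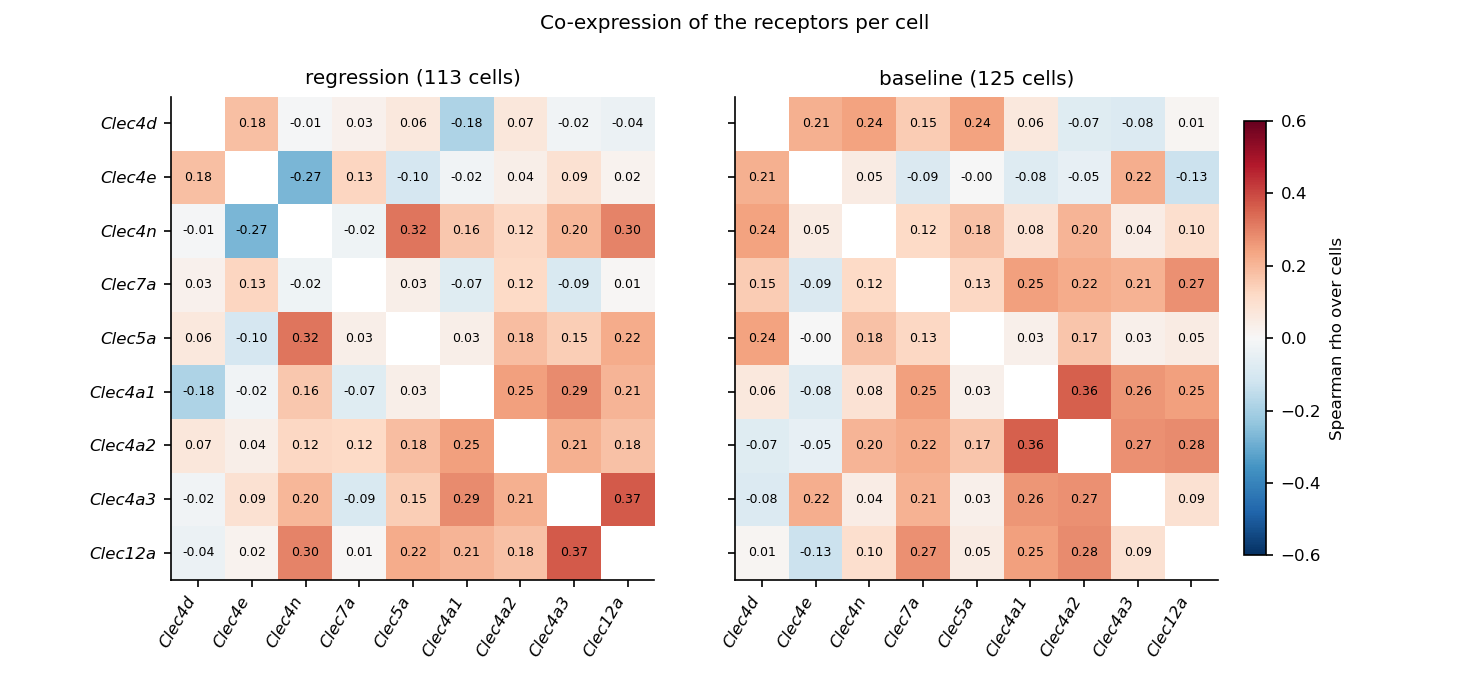
Spearman's rho of log2(RPKM + 1) for each pair of receptors over 113 regression cells (left) and 125 baseline cells (right), with red for positive and blue for negative values. In regression the lowest is Clec4e with Clec4n at -0.27 and the highest Clec4a3 with Clec12a at 0.37, and the pairs among Clec4a1, Clec4a2, Clec4a3 and Clec12a are above 0 in both groups.

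The genes whose level followed each receptor most closely from cell to cell were taken as the 3 with the highest rho in the group that lists the receptor in more cells, among 3289 genes in regression and 3371 in baseline. For Clec4d these were Arg1 (arginase 1; rho 0.42 over 113 regression cells), Tpi1 (a glycolytic enzyme; 0.37) and Thbs1 (thrombospondin 1; 0.35). In baseline, where Arg1 was listed in 2.40% of cells against 83.2% in regression, Clec4d and Arg1 had a rho of 0.06. For Clec4e they were Metrnl (0.41), Ms4a8a (0.40) and S100a4 (0.38). For Clec4n they were Ftl1, the ferritin light chain, with 0.52, the highest rho named here, Ms4a7 with 0.44 and the costimulatory ligand Cd86 with 0.43. Ftl1 was listed in 100.0% of cells of both groups with a difference of 0.00, and its rho with Clec4n was 0.07 in baseline. For Clec7a they were Glud1 (0.34), Atg7 (0.31) and Tmem2 (0.29).

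For Clec4a1 they were Pla2g7, a lipoprotein-associated phospholipase, with 0.37, and Ms4a7 and Dtx3l with 0.34 each. Clec4a2 came with Gsto1, Zeb2 and Marcks (0.34, 0.34 and 0.33), and Clec4a3 with the Src-family kinase Lyn (0.42), Cyp4f18 (0.42) and Marcks (0.40). Over baseline cells, Clec5a came with Olfml3, Tbxas1 and Mea1 (0.39, 0.37 and 0.37) and Clec12a with Evi2a, G3bp2 and Tmbim6 (0.34, 0.34 and 0.33). Ms4a7 stood in the lists of both Clec4n and Clec4a1, and Marcks in those of both Clec4a2 and Clec4a3. The highest of so many correlations are high by choice, and the median rho of all genes ranked lay between 0.01 and 0.06. Each named rho was lower in the other group, from -0.09 (Clec4a1 with Ms4a7) to 0.25 (Clec7a with Tmem2). Within single stretches of the ranked group, rho fell to -0.01 for Clec7a with Glud1 and to -0.04 for Clec4a2 with Gsto1. It stayed positive for the other named pairs.

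The genes that carry the receptors' signals were taken as lists. The counts of this list and of those below stand beside all 9299 genes, of which 47.2% had the higher and 52.8% the lower mean. The adaptors Fcer1g and Tyrobp, named after their values were seen, were listed in 113 of 113 regression cells each and in 124 and 125 of 125 baseline cells. Fcer1g had a level of 11.37 ± 0.97 in regression and 11.23 ± 1.33 in baseline, a difference of 0.14, and Tyrobp 11.54 ± 1.19 in regression and 11.17 ± 1.51 in baseline, a difference of 0.37. Of 18 genes of the adaptors and the Syk and Card9 pathway, 17 passed the filter of 5% of cells, 9 with the higher and 8 with the lower mean, and the median was 0.05. The ends of that list were Syk (2.92 ± 2.72 in regression, 2.25 ± 2.51 in baseline, difference 0.67) and the kinase Prkcd (0.43), against the exchange factor Vav3 (-0.51) and Card9 (-0.30). Card9 was listed in 3 regression cells and 10 baseline cells only.

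Of 7 partners of inhibitory receptors, 4 had the higher and 3 the lower mean, with a median of 0.21. Ptpn6, the phosphatase SHP-1, had a level of 4.51 ± 3.10 in regression and 5.61 ± 3.27 in baseline, a difference of -1.10, below 0 in 6 of 6 pairings. Inpp5d, the lipid phosphatase SHIP1, differed by -0.83, while Ptpn11 (SHP-2) differed by 0.55 and Dok2 by 0.71.

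Of 17 response genes of these receptors in macrophages, 13 passed the filter, 3 with the higher and 10 with the lower mean, and the median was -0.25. Of all 9299 genes, 52.8% had the lower mean. The chemokine Cxcl2 had a level of 7.09 ± 3.40 in regression and 5.97 ± 4.24 in baseline, a difference of 1.12, and Il1b differed by 0.53. Tnf had a level of 1.04 ± 2.28 in regression and 2.54 ± 3.40 in baseline, a difference of -1.50, and Nfkbiz, an inhibitor of kappa B family gene, differed by -1.35. The count of this list depends on the stretch: 7 of 13 had the higher mean without regression stretch 168-244, and 1 of 12 without stretch 1-20. In stretch 1-20 the level of Il1b was 7.84, against 4.84 and 3.57 in stretches 93-111 and 168-244.

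Of 8 transcription factors with a known part in inducing these receptors or their response genes, 3 had the higher and 5 the lower mean, with a median of -0.26. Cebpb, which encodes a C/EBP factor, had a level of 6.73 ± 1.67 in regression and 4.74 ± 2.09 in baseline, a difference of 1.99, above 0 in 6 of 6 pairings (1.06 to 2.34). Spi1, which encodes PU.1, differed by 0.65, and Irf5 and Irf8 differed by -0.77 and -0.68.

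Of 30 other C-type lectin and lectin-like receptors, 14 passed the filter, 2 with the higher and 12 with the lower mean, and their median of -0.31 was below 0 in 6 of 6 pairings, beside 52.8% of all 9299 genes with the lower mean. The other 16 were listed in too few cells to be measured. Olr1, the oxidised low-density lipoprotein receptor LOX-1, was listed in 21 regression cells and 3 baseline cells and differed by 0.83, and Colec12 differed by 0.18. Cd72, a lectin-like receptor best known from B cells, had a level of 1.69 ± 3.12 in regression and 6.74 ± 4.00 in baseline, a difference of -5.06, and Mgl2, a galactose-type lectin, differed by -3.23. Clec4b1, a gene of the same chromosome 6 cluster named after its values were seen, had a level of 0.91 ± 2.27 in regression and 2.53 ± 3.54 in baseline, a difference of -1.62 opposite in sign to those of Clec4d, Clec4e and Clec4n.

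Of 25 other pattern-recognition receptors found in the table, 21 passed the filter, 9 with the higher and 12 with the lower mean, and the median was -0.07. The scavenger receptor Msr1 had a level of 5.72 ± 3.11 in regression and 3.30 ± 3.32 in baseline, a difference of 2.42. The formyl peptide receptor Fpr1 was listed in 27 regression cells and 3 baseline cells and differed by 1.34, while Tlr7 differed by -0.71 and Trem2 by -0.57.

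**Figure D5:**
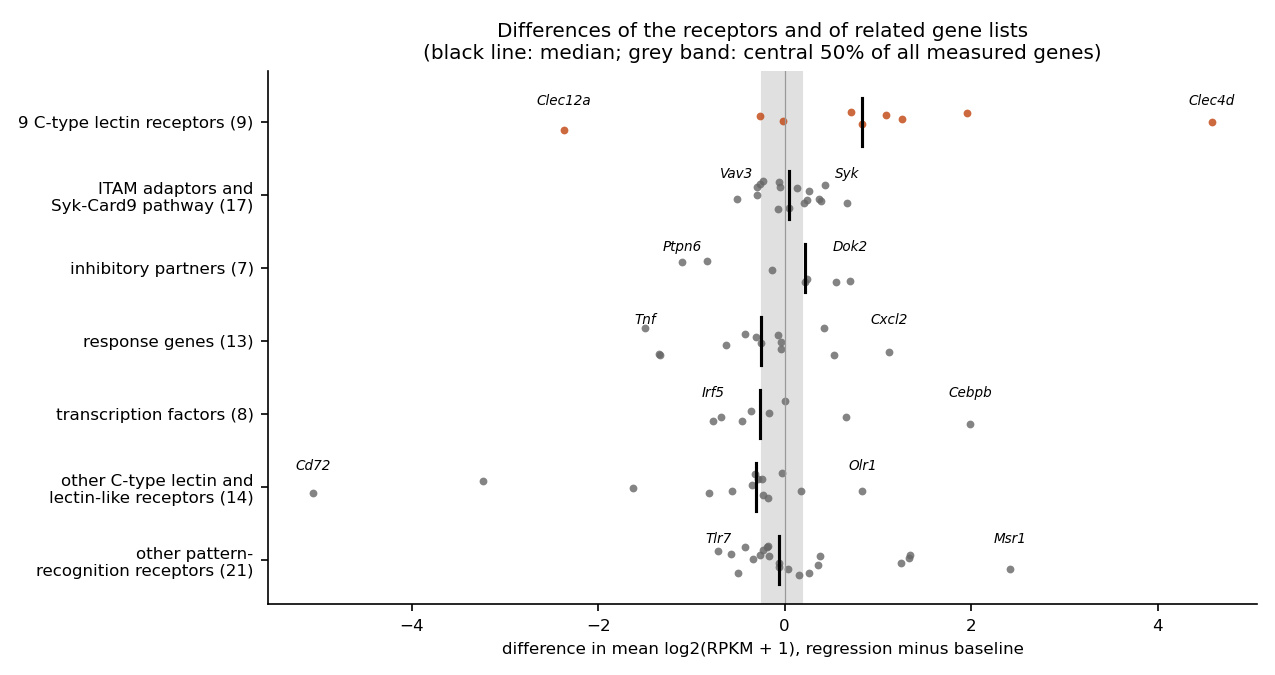
Difference in mean log2(RPKM + 1), regression minus baseline, for the 9 receptors (orange, top row) and for the measured genes of 6 related lists (grey, a dot per gene, number of genes in brackets); black lines are medians and the grey band holds the central 50% of all measured genes. The receptors run from -2.37 for Clec12a to 4.59 for Clec4d with a median of 0.82, the other C-type lectins from -5.06 for Cd72 to 0.83 for Olr1 with a median of -0.31.

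Clec4d and Clec4e are also carried by neutrophils and monocytes, some of whose markers were listed in more regression than baseline cells. At least 2 of 8 neutrophil markers were listed in 45 regression cells (39.8%) and 28 baseline cells (22.4%), with a summed RPKM of 0 to 29863 (median 13.7) in regression and 0 to 17711 (median 3.57) in baseline. The defining markers Ly6g and Camp were at 0 in every cell of both groups, and Retnlg was at 0 in every regression cell. S100a8 was listed in 23.9% of regression and 8.80% of baseline cells, S100a9 in 16.8% of regression and 6.40% of baseline cells, and Csf3r in 46.9% of regression and 32.8% of baseline cells. Cxcr2 (41.6% in regression, 40.0% in baseline) and Mmp8 (6.19% in regression, 9.60% in baseline) make up the list. At least 3 of 6 classical monocyte markers were listed in 44 regression cells (38.9%) and 26 baseline cells (20.8%), with a summed RPKM of 0 to 15524 (median 498.7) in regression and 0 to 3444 (median 378.2) in baseline. Ccr2 (88.5% of regression and 72.0% of baseline cells), F13a1 (81.4% in regression, 62.4% in baseline) and Vcan (25.7% in regression, 6.40% in baseline) were listed in more regression cells. Ly6c2 (6.19% in regression, 16.0% in baseline) and Plac8 (23.9% in regression, 29.6% in baseline) were listed in fewer. At least 3 of 6 nonclassical monocyte markers were listed in 4 regression cells (3.54%) and 23 baseline cells (18.4%).

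Over regression cells the rho of Clec4d with the mean neutrophil marker level was 0.02 and with the mean classical monocyte marker level -0.09, and over baseline cells 0.09 and -0.04. For Clec4e these were 0.07 and 0.16 in regression and -0.03 and 0.06 in baseline. Without the cells that listed at least 2 neutrophil markers, 68 regression and 97 baseline cells were left. Over these, Clec4d differed by 4.94, Clec4e by 1.83 and Clec12a by -2.54. Without those that listed at least 3 classical monocyte markers, 69 regression and 99 baseline cells were left, and the differences were 4.43, 1.49 and -2.38. Ly6g and Camp took no part in the neutrophil rule, as no cell had them. The part of neutrophils or monocytes in the differences was not tested. Nonclassical monocyte markers had a rho with Clec12a of 0.02 in regression and 0.01 in baseline. Summed RPKM of the dendritic, T, B, NK, mast, endothelial, smooth muscle and fibroblast marker lists had a median of 0 in regression for each list, and in baseline for each but dendritic cells (0.163). At least 2 of 8 dendritic markers were listed in 1 regression cell (0.885%) and 12 baseline cells (9.60%). Of these baseline cells, 11 were in stretch 21-92. The summed dendritic RPKM reached 212.7 in regression and 1229 in baseline.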

How the data were processed

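Single plaque macrophages were captured on a Fluidigm C1 chip, with cDNA by a SMARTer kit and libraries by Nextera XT, per the labels' protocols. That protocol mentions islet cells, while tissue, source and cell type labels give aortic-arch macrophages. RPKM values, which scale reads by transcript length and library size, were deposited by the authors for 24475 genes and 244 libraries (116 regression, 128 baseline). Per the submitters' processing notes, CASAVA 1.8.2, FastQC and the mm10 build were used. An aligner, a gene annotation and an RPKM program were not given in the sources used here. Values under 0.001, less than 1 read could give, made up 0.910% of all positive values, so no reads were recovered for a count test. The libraries carry no molecular identifiers.

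Libraries whose log2 values correlated above 0.9 were counted as 1 cell: 3 baseline pairs (r of 0.992 to 0.997, all other pairs at most 0.654) were averaged. Of the 241 cells, 238 with at least 1000 genes at an RPKM of 1 or more were kept, and 3 regression cells were left out. Doublets were not called. Depth was estimated from the step of low values in 5727 genes with 1 transcript in GENCODE vM21 and is given where 2 gene sets agreed within 10%. It ran from 0.399 to 7.43 M reads in regression and from 0.497 to 8.24 M reads in baseline. In the median library 62.6% (regression) and 60.7% (baseline) of the low values came within 0.1 of whole reads.

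Each group is 1 sample, so no test, p-value or standard error was made, and the SDs are spreads between cells. Values were compared as log2(RPKM + 1). Shares have exact (Clopper-Pearson) 95% binomial intervals. Co-expression is Spearman's rho over cells. The members and the gene and marker lists were chosen with earlier results of these data known. All 9 receptors, the 2 highest and 2 lowest measured genes of each list by difference, and the 3 genes of highest rho with each receptor (listed in at least 25% of cells) are named. Genes named after their values were seen are marked so. Positions and promoters are from RefSeq (GRCm38.p6). A planned comparison of the receptors' protein sequences was not made. Calculations used Python 3.11.15, numpy 2.4.6, pandas 2.3.3, scipy 1.17.1 and matplotlib 3.10.9, and the scripts were tested on simulated data. Other pseudocounts, filters, scalings, cell sets and stretches left out were tried.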

Additional observations from a re-analysis of the deposited data

How the results depend on the processing

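No paired analysis was possible because each library number occurs once and the groups share none. The difference of Clec4d ran from 2.96 (pseudocount 10) to 6.20 (pseudocount 0.1), that of Clec4e from 1.08 to 2.93 and that of Clec12a from -3.39 to -1.47, with the sign as reported in 14 of 14 alternatives each. Clec4n ran from 0.60 to 1.49, Clec7a from 0.17 to 1.20 and Clec4a1 from 0.45 to 1.29, without a change of sign. Clec5a, from -0.59 to 0.36, and Clec4a3, from -0.90 to 0.14, lay on both sides of 0. Clec4a2 turned to -0.16 without regression cells 168-244. Over 8 alternatives the difference in the share of cells kept its sign for Clec4d (46.9 to 54.3 points), Clec4e (22.5 to 39.0), Clec12a (-37.0 to -22.7), Clec4n (0.305 to 19.2), Clec7a (2.37 to 12.0) and Clec4a1 (5.35 to 12.7). It lay on both sides of 0 for Clec5a (-12.5 to 2.19), Clec4a2 (-9.43 to 15.2) and Clec4a3 (-6.51 to 10.3). The median of the 9 differences was 0.45 without baseline cells 112-167, against 0.82. The share of all genes with a difference of at least 1 was 1.45% with no filter, 5.60% where 25% of cells had to list the gene and 0.936% with a pseudocount of 10, and that with a difference of at most -1 was 1.89%, 7.37% and 1.05%. With the filter of 25%, 2 of 4 inhibitory partners and 1 of 6 other C-type lectins had the higher mean, and 4 of 13 other C-type lectins did so without baseline cells 21-92. Of the response genes, 1 of 12 had the higher mean without regression cells 1-20, 7 of 13 without regression cells 168-244 and 5 of 12 without baseline cells 21-92. Beyond fewer genes or cells entering these settings, the cause was not tested. Depth limits receptors near 1 read per cell, where an absent value and a missed molecule cannot be told apart.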
